A study of Mus musculus with 10 samples.

Results

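The TCA cycle and pyruvate dehydrogenase genes are a list of 31 symbols, all of which had a row among the 24972 gene symbols of the deposited table. They comprise the mitochondrial pyruvate carrier, the subunits, kinases and phosphatases of the pyruvate dehydrogenase complex, and enzymes of the tricarboxylic acid (TCA) cycle. The rest are enzymes that act on citrate, isocitrate, malate or aspartate beside the cycle, in mitochondria or cytosol. RNA was measured in 10 mouse liver libraries. Of these, 4 came from mice bearing tumours of the T cell-low pancreatic ductal adenocarcinoma line 6419c1, and 6 from mice bearing tumours of the T cell-high line 6555c3. Both lines derive from the KPC model, a genetic mouse model of pancreatic cancer, and all samples carry the genotype label WT. With 1 tumour line behind each group, the lines and the T cell classes form a single contrast. Not given in the sources used here: strain, sex, age, time with the tumour, and whether any 2 libraries share a mouse. The p-values therefore weigh the difference between groups against the spread among libraries of a group, a spread that may be technical.

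Pyruvate from glycolysis enters mitochondria through the carrier formed by Mpc1 and Mpc2. The pyruvate dehydrogenase complex then turns it into acetyl-CoA, and is switched off by its kinases and on by its phosphatases. Citrate synthase joins acetyl-CoA to oxaloacetate, and the cycle oxidises the product back to oxaloacetate while it yields NADH for respiration. In liver the cycle also feeds glucose synthesis and exports citrate for fatty acid synthesis, for which cytosolic isocitrate dehydrogenase (Idh1) and malic enzyme (Me1) supply NADPH.

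RefSeq promoter windows (build GRCm38.p6) were found for 28 of the 31 members. The 250 bases before the outermost RefSeq start are shown 5′ to 3′ for Idh1, Me1, Pdp2 and Suclg2, the members whose RNA differed by at least 1 on the log2 scale whichever T cell-high libraries they were set against, and for Cs and Fh1, whose difference varied most with that choice apart from Idh1. Capitals mark GC boxes (GGGCGG, the Sp1 motif), CCAAT boxes (CCAAT) and E-boxes (CACGTG), on either strand.
Idh1, chr1:65186480-65186729, minus strand: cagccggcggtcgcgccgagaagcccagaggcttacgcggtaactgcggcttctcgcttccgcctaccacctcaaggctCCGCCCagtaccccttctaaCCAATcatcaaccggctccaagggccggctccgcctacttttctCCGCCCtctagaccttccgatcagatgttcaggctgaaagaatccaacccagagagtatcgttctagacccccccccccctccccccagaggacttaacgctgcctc
Me1, chr9:86695915-86696164, minus strand: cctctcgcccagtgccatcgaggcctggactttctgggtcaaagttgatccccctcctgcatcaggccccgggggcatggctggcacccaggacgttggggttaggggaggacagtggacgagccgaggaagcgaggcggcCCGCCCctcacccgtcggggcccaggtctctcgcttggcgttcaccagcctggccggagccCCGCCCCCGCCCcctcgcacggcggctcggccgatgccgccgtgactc
Pdp2, chr8:104591222-104591471, plus strand: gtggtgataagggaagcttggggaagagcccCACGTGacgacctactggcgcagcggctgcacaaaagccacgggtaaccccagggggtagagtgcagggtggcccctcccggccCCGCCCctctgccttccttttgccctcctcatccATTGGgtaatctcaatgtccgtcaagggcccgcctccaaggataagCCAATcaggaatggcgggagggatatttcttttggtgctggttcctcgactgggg
Suclg2, chr6:95718847-95719096, minus strand: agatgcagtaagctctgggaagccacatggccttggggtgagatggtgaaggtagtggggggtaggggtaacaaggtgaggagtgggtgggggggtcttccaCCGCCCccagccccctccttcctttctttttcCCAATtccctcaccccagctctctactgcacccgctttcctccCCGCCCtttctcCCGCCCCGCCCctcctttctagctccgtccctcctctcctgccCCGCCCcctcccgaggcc
Cs, chr10:128337477-128337726, plus strand: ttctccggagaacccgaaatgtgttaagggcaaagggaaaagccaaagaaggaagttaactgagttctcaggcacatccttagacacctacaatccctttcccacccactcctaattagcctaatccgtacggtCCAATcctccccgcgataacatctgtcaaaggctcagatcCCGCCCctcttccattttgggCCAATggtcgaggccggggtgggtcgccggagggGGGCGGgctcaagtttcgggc
Fh1, chr1:175625636-175625885, minus strand: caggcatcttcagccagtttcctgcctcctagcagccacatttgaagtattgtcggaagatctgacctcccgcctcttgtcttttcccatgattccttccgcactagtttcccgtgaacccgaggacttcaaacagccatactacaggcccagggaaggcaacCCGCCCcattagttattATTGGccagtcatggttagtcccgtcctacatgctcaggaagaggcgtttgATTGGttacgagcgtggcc
A GC box was present in a window of 20 of the 28 members and in 63.2% of 8769 tested genes with a window, and a CCAAT box in 16 and in 40.8%. Both lay in 1 window for 12 members and for 23.6% of tested genes. The NRF1 motif (GCGCA, any base, then GCGC) was present for 1 member (9.5% of tested genes), the ETS motif CCGGAAG for 2 (15.7%), the half-site AAGGTCA of oestrogen-related receptors for 0 (3.69%) and the E-box for 3 (10.2%). Over all 32851 windows the shares were 32.7% for the GC box, 33.8% for CCAAT, 3.74% for NRF1, 6.91% for ETS, 4.08% for AAGGTCA and 6.02% for the E-box, with overlaps between motifs counted for each. These are matches of letters, not measured binding sites.

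The deposited values are not whole numbers and have close library totals. They are read here as gene counts brought to a common depth and called scaled counts, and the depth behind them is unknown. Library totals ran from 7000659 to 8257373 scaled counts, and 13370 to 14300 genes were above 0. The tissue label was met by hepatocyte genes, among them albumin (Alb), with 183622 ± 45692 scaled counts (SD, n = 4) in T cell-low livers, against 200995 ± 84559 (SD, n = 6). The T cell-high libraries were not alike. T cell-high 1, 3, 5 and 6 lay above the other 6 libraries in 11.1% of all tested genes and below them in 6.95%, a set known from earlier work on these data, so members and named genes are also set against each part of the T cell-high group below. Markers of some other cells differed between the groups too. The counts of markers called stand beside 5.39% of all tested genes called higher and 7.39% called lower. The 8 neutrophil markers summed to 639 to 1766 scaled counts in T cell-low libraries, against 39.8 to 211 in the T cell-high ones (4 of 4 tested were higher), and the 8 immediate early genes to 1279.8 to 7912 and 594 to 2239 (2 of 8 higher). The 7 erythroid genes summed to 43163 to 98228 and 19681 to 51936 (2 of 6 higher), the 8 Kupffer cell and macrophage genes to 5256 to 9064 and 2826 to 11359 (0 of 8 called), and the 8 hepatocyte genes to 393114 to 569506 and 266673 to 519599.6 (2 of 8 higher). Stellate cell genes summed to 3528 to 5659 and 2591 to 3384 (1 of 7 higher), sinusoidal endothelial genes to 2242 to 2640 and 2000.5 to 2887 (2 of 7 higher), and pancreatic ductal tumour genes to 1353 to 2311 and 1314 to 2037 (1 of 4 higher). Cholangiocyte genes summed to 152 to 447 and 107 to 233 (0 of 3 called), B cell genes to 16.6 to 92 and 16.5 to 37.4 (0 of 2), and T and NK cell genes to 9.74 to 58.7 and 20.1 to 57.9 (0 of 1). Some sums differed between the parts of the T cell-high group. Hepatocyte genes summed to 419154 to 519599.6 in T cell-high 1, 3, 5 and 6, and to 266673 to 336525 in T cell-high 2 and 4. Kupffer cell and macrophage genes summed to 2826 to 8107 and to 8402 to 11359 in the same order. Immediate early genes summed to 594 to 1009 and to 1267 to 2239, and stellate cell genes to 3209 to 3384 and to 2591 to 2754. The sums of the other marker lists overlapped between the parts. Hbb-bs, an erythroid gene, held 118 to 215 in T cell-low libraries. It held 3465 to 9359 in T cell-high 1, 3, 5 and 6, against 99.7 and 16.2 in T cell-high 2 and 4. The other tested erythroid genes overlapped between these parts. Hba-a2, the highest of them, held 15331 to 32670.1 in T cell-high 1, 3, 5 and 6, against 50406 and 25604. The erythroid sums overlapped too, at 19681 to 41821 and 26584 to 51936, so the Hbb-bs values do not stand for the list. No gene of these lists was at 0 in every library. The part of these cells and genes in the results below was not tested, and in whole tissue fewer cells of a type and less RNA per cell cannot be told apart.

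Every member that passed the test was lower in the T cell-low group. Among the 29 tested, whose mean reached 10 scaled counts, 9 fell and 0 rose, and 20 did not pass (limma, Benjamini-Hochberg adjusted p below 0.05 over 11110 tested genes). Of all tested genes 12.8% were called in either direction, 7.39% lower and 5.39% higher. At an unadjusted p below 0.05, 17 members were lower and 1 was higher, beside 18.5% and 16.0% of all tested genes. Each fold change subtracts the T cell-high from the T cell-low mean on the scale log2(scaled count + 1), which understates changes of low genes. Their median was -0.58 over the members and 0.003 over all tested genes. The groups did not overlap in 5 members, all 5 with every T cell-low library below every T cell-high library, a pattern seen in 4.02% of all tested genes (3.37% the other way round). The 9 members were Idh1, Me1, Pdp2, Idh3b, Aco1, Suclg2, Pdhb, Idh2 and Suclg1, in order of fold change. They lie at the citrate and isocitrate steps, at succinyl-CoA ligase, at malic enzyme and in the pyruvate dehydrogenase system.

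**Figure D1:**
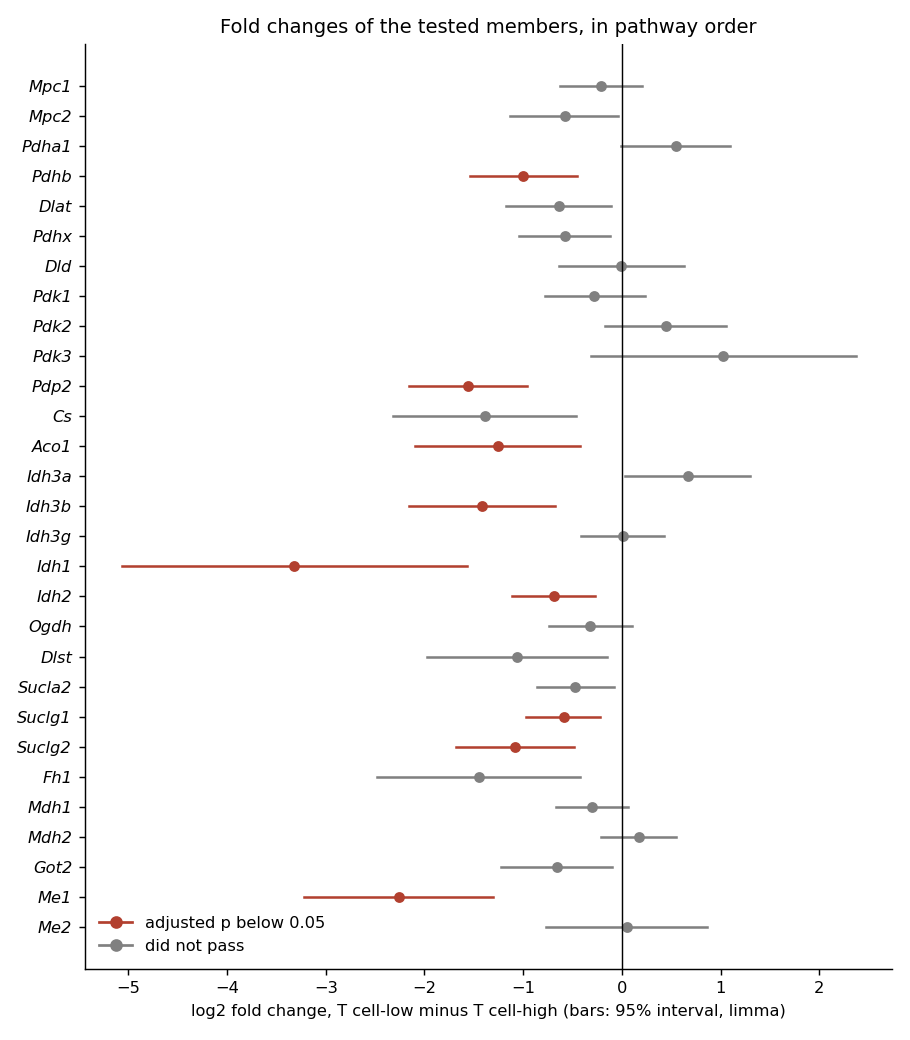
Log2 fold change (T cell-low minus T cell-high) of the 29 tested members in pathway order, with the 95% interval of the moderated test. Red points passed at an adjusted p below 0.05, and all 9 of them lie to the left of 0, from -3.32 for Idh1 to -0.59 for Suclg1.

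The count depended on single libraries, and so did the share of all tested genes called lower, given here in brackets. With T cell-low 2 left out 1 member fell (0.603%), with T cell-low 3 left out 5 (3.06%) and with T cell-low 4 left out 2 (0.963%). Leaving out T cell-high 1, 3, 5 or 6 left 2 members each time (2.39%, 2.11%, 2.04% and 2.39%). The count was higher when T cell-high 2 (14 members, 11.8%), T cell-high 4 (11 members, 5.9%) or T cell-low 1 (13 members, 17.2%) was dropped, and in the last case 3 members also rose (15.4% of all genes called higher). When T cell-high 1, 3, 5 and 6 were all dropped, 0 members passed (0% of all tested genes by limma, with 999 of them at an unadjusted p below 0.05). When T cell-high 2 and 4 were both dropped, 15 members fell (13.5%) and 1 rose (9.94%). Of the other settings, equal totals called 11 members lower (9.61%), no variance trend 5 (4.48%), library weights 15 lower (16.5%) and 3 higher (12.9%), a replicate number as a block 3 (1.2%), and a threshold of 0.1 called 15 (25.8% in either direction). Pdp2 passed with each of the 10 libraries left out in turn, and Me1 in 9 of the 10 fits (adjusted p = 0.0616 by limma without T cell-low 2). The other 7 members passed in 3 or 4 of the 10.

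At the entry of pyruvate, neither carrier subunit passed. Mpc1 had 486 to 721 scaled counts in T cell-low livers, against 547 to 873 (a fold change of -0.21, SE 0.19, adjusted p = 0.447 by limma), and 25.2% of the words of its 3′ end also occur in pseudogenes, so its value is uncertain. Mpc2 had 1667, 1465, 1052 and 1364 in T cell-low 1 to 4, against 1212 to 2985 with a median of 2290.5 in T cell-high livers (-0.58, SE 0.25, adjusted p = 0.123 by limma). The 2 lowest T cell-high values of Mpc2 were 1212 and 1572, in T cell-high 2 and 4, inside the T cell-low range.

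In the pyruvate dehydrogenase complex 1 of 5 subunit genes fell. Pdhb, the beta subunit of the decarboxylating enzyme E1, had 248, 169, 331 and 332 scaled counts in T cell-low 1 to 4, against 368 to 685 with a median of 525 in T cell-high livers. Every T cell-low library lay below every T cell-high library, with 332 and 368 as the nearest values. The group means were 270 ± 78 (SD, n = 4) and 535 ± 134 (SD, n = 6), which differ by -1.0 on the log2 scale (SE 0.25, adjusted p = 0.0293 by limma). Pdha1, the alpha subunit of the same enzyme and the target of the kinases, lay the other way. It had 633, 1194, 1409 and 909 against 521 to 1033 with a median of 613 (0.55, SE 0.26, adjusted p = 0.151 by limma), and it passed as higher without T cell-low 1 (0.76, adjusted p = 0.0294). The acetyltransferase Dlat had 64.7 to 136 against 114 to 190 (-0.64, adjusted p = 0.0918) and the E3-binding protein Pdhx 94.1 to 133 against 117 to 199 (-0.58, adjusted p = 0.0813), both short of the threshold. Dld, the lipoamide dehydrogenase shared with the 2-oxoglutarate complex, had 414 ± 143 against 416 ± 163 scaled counts (-0.01, 95% interval -0.64 to 0.63).

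The phosphatase gene Pdp2, whose enzyme removes the inhibitory phosphate from E1, fell, and 0 of 3 kinase genes passed. Pdp2 had 217, 66.1, 91.7 and 109 scaled counts in T cell-low 1 to 4, and 271 to 361 with a median of 327 in T cell-high livers. The groups were apart, and the T cell-high values were close together, at 326 ± 33.8 (SD, n = 6) against 121 ± 66.3 (SD, n = 4). The log2 fold change was -1.56 (SE 0.28, adjusted p = 0.012 by limma), and T cell-low 1 was the nearest to the other group. Pdp1, the other phosphatase gene, ranged from 0 to 17.7 scaled counts in the 10 libraries, under the mean needed for a test. Among the kinases, Pdk1 had 141 to 233 against 165 to 329.7 (-0.28, adjusted p = 0.42 by limma) and Pdk3 6.15 to 32.1 against 2.6 to 14.8 (1.03, SE 0.62, adjusted p = 0.25). Pdk2, a main kinase of liver, had 839.9, 2496, 1749.7 and 1403 in T cell-low 1 to 4 and 882 to 1692 with a median of 1015 in T cell-high livers (0.45, SE 0.28, adjusted p = 0.275), and it passed as higher without T cell-low 1 (0.73, adjusted p = 0.0388).

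At citrate synthase the value lay at the threshold. Cs had 169, 54.2, 94.9 and 117 scaled counts in T cell-low 1 to 4, against 112 to 452 with a median of 350.5 in T cell-high livers (-1.39, SE 0.43, adjusted p = 0.0505 by limma). T cell-high 2 and 4 held 112 and 139, within the T cell-low range, while the other T cell-high libraries held 324 to 452. Aco1, the cytosolic aconitase that also acts as an iron regulatory protein, fell, with the adjusted p nearest to the threshold. It had 171, 77.8, 72.8 and 138 against 111 to 444 with a median of 326 (-1.26, SE 0.39, adjusted p = 0.0499 by limma). Its groups overlapped, again through T cell-high 2 (111) and 4 (169).

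Isocitrate dehydrogenases gave the largest and the most divided values. Idh1, the cytosolic NADP-dependent enzyme, had 837, 28.2, 261 and 50.8 scaled counts in T cell-low 1 to 4, and 513 to 2867 with a median of 1628 in T cell-high livers. T cell-low 2 and 4 were far below all other libraries, and T cell-low 1 lay above T cell-high 2 (513) and 4 (622). The log2 fold change was -3.32 (SE 0.81, 95% interval -5.07 to -1.57, adjusted p = 0.0262 by limma), and it was -2.07 against T cell-high 2 and 4 alone. Idh2, its mitochondrial counterpart, had 1082, 738, 700.3 and 898 against 1107 to 1638 with a median of 1366. Its groups were apart by a small gap, 1082 to 1107, and its fold change was smaller (-0.69, SE 0.19, adjusted p = 0.0401).

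The NAD-dependent enzyme of the cycle is built from 3 subunits, and their genes did not move together. Idh3b, a regulatory subunit, had 160.5, 93.7, 111 and 126 scaled counts in T cell-low 1 to 4, and 177 to 622 with a median of 377 in T cell-high livers (-1.42, SE 0.34, adjusted p = 0.0256 by limma). Its groups were apart, but T cell-high 2 and 4, at 177 and 178, were nearer to T cell-low 1 than to the other T cell-high libraries. The catalytic subunit gene Idh3a had 180.5, 575, 363 and 308 against 169 to 307 with a median of 190.1 (0.67, SE 0.30, adjusted p = 0.131), and it passed as higher without T cell-low 1 (0.95, adjusted p = 0.0157). Idh3g, the other regulatory subunit gene, had 349 ± 65 against 346 ± 55.8 (0.01, 95% interval -0.41 to 0.43). Nop56, on the opposite strand at the 3′ end of Idh3b, had 364 and 274 scaled counts in the group means (0.40, adjusted p = 0.148), and whether counting used the strand is not given in the sources used here. Opposite-strand neighbours at the ends of Mpc1, Pdha1, Pdk2 and Idh3g had at most 17.9 scaled counts in any library.

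At the 2-oxoglutarate dehydrogenase complex 0 of 2 genes passed. Ogdh, its decarboxylase, had 399 to 725 scaled counts in T cell-low livers, against 572 to 712 (-0.32, SE 0.19, adjusted p = 0.252 by limma). Dlst, its succinyltransferase, had 256, 167, 82.1 and 277 against 181 to 592 with a median of 448 (-1.06, SE 0.42, adjusted p = 0.1). T cell-high 2 and 4 had 199 and 181 scaled counts of Dlst, inside the T cell-low range.

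Of the 3 genes of succinyl-CoA ligase, which makes a nucleoside triphosphate in the cycle, 2 fell. Suclg2, the beta subunit of the GTP-forming enzyme, had 1134, 552, 1136 and 416 scaled counts in T cell-low 1 to 4, against 1304 to 1785 with a median of 1617. The groups were apart, and T cell-high 2 and 4 held 1785 and 1637, among the high values, so that the difference was of like size against either part of the T cell-high group (log2 fold change -1.08, SE 0.28, adjusted p = 0.0297 by limma). 18.7% of the words of its 3′ end occur in a pseudogene that has no row in the table used. Suclg1, the alpha subunit of both forms, had 1525, 1125, 1205 and 991 against 1504 to 2028 with a median of 1811 (-0.59, SE 0.17, adjusted p = 0.0446). Sucla2, the beta subunit of the ATP-forming enzyme, had 510, 440.2, 639.8 and 371 against 638 to 721 with a median of 659 (-0.47, SE 0.18, adjusted p = 0.0931). Only T cell-low 3 of Sucla2 (639.8) reached the T cell-high range.

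Of fumarase, the malate dehydrogenases and mitochondrial aspartate aminotransferase, 0 of 4 genes passed. Fumarase, Fh1, had 199, 144, 90 and 296 scaled counts in T cell-low 1 to 4, against 181 to 971 with a median of 601 (-1.45, SE 0.48, adjusted p = 0.059 by limma). T cell-high 2 and 4 held 210 and 181, and the other T cell-high libraries 577 to 971. Cytosolic malate dehydrogenase, Mdh1, had 1961 to 2864 against 2691 to 3602 (-0.30, SE 0.17, adjusted p = 0.219), and mitochondrial Mdh2 2478 to 3374 against 2329 to 3349 (0.17, SE 0.18, adjusted p = 0.508). Got2, the aminotransferase that links oxaloacetate to aspartate in the malate-aspartate shuttle, had 2469, 1481, 1643 and 2219.6 against 1617 to 4082 with a median of 3387 (-0.66, SE 0.26, adjusted p = 0.0982).

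Among the malic enzymes, which turn malate into pyruvate, the cytosolic NADP-dependent gene Me1 fell. It had 1006, 261, 333 and 138 scaled counts in T cell-low 1 to 4, and 934 to 2639 with a median of 1683 in T cell-high livers. T cell-low 2, 3 and 4 were below every T cell-high library, and T cell-low 1 lay just above T cell-high 6 (934). The group means were 435 ± 389 (SD, n = 4) and 1679 ± 579 (SD, n = 6), which differ by -2.26 on the log2 scale (SE 0.44, 95% interval -3.22 to -1.31, adjusted p = 0.0143 by limma). The mitochondrial Me2 had 29.4 to 49.8 against 17.8 to 90.9 (0.05, 95% interval -0.77 to 0.86). Me3 had at most 2.47 scaled counts in any library, was listed at 0 in 6 of the 10 and was not tested.

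**Figure D2:**
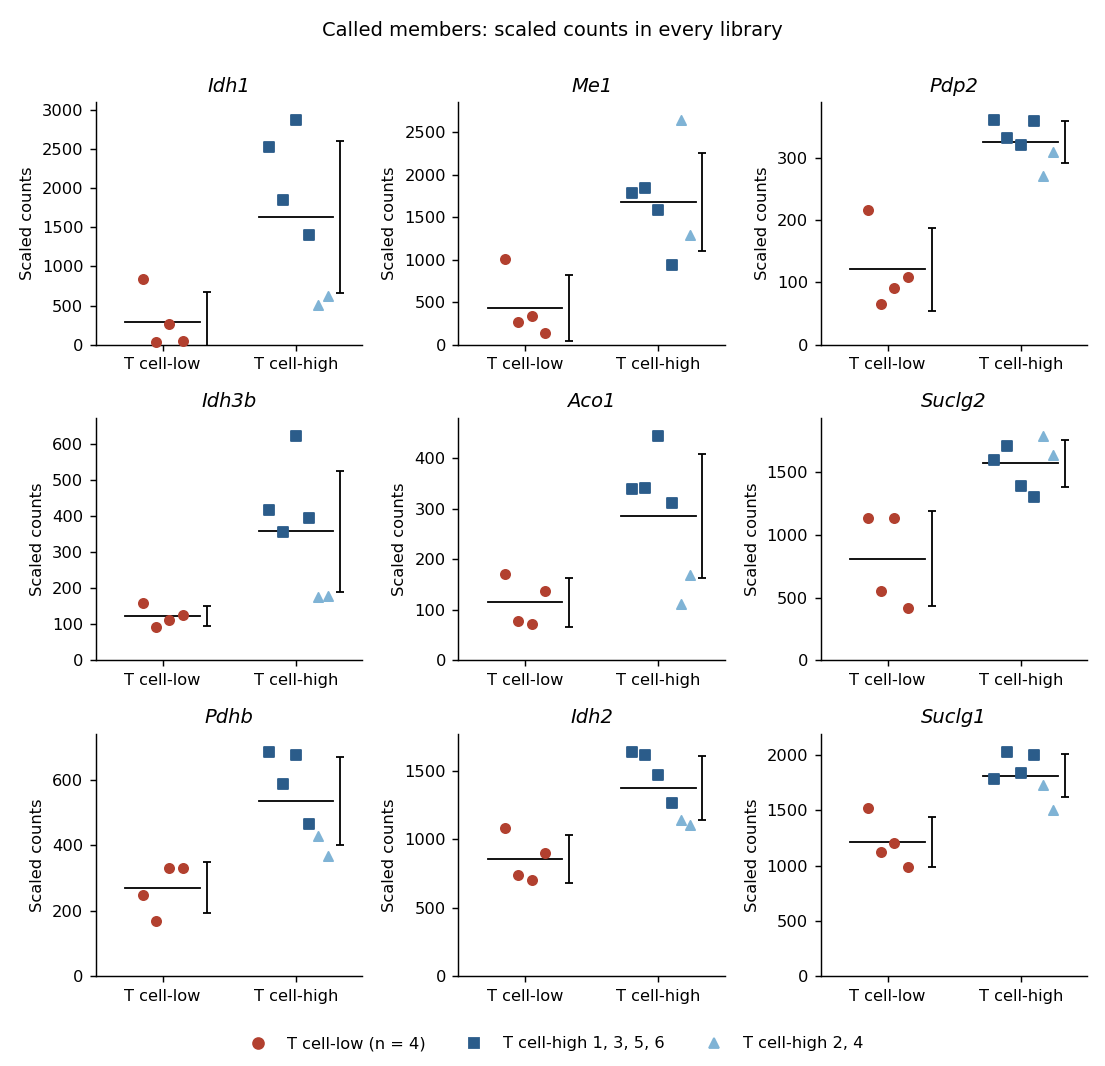
Scaled counts of the 9 members that passed, in each library, with the group mean (line) and SD (bar to its right, cut at 0 for Idh1). T cell-high 2 and 4 (triangles) sit beside the T cell-low libraries for Idh3b and Aco1 and among the other T cell-high libraries for Suclg2, while for Pdp2 they are the 2 lowest of their group, at 271 and 309.9, and above every T cell-low library.

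The members differed in how they ran across the T cell-high libraries. In 12 of the 29 tested members T cell-high 1, 3, 5 and 6 lay above all other 6 libraries, beside 11.1% of all tested genes, and in 1 (Pdha1) below them, beside 6.95%. The 12 were Mpc2, Pdhb, Pdp2, Cs, Aco1, Idh3b, Idh1, Idh2, Dlst, Suclg1, Fh1 and Got2, and 7 of the 9 called members were among them. The pattern puts these T cell-high libraries above every T cell-low library and so itself favours a lower call. Its share among all called genes was not computed. The split had been seen over all genes of these libraries, so these counts describe it and do not test it. Setting T cell-low livers against T cell-high 1, 3, 5 and 6 gave -1.93 for Cs, -2.06 for Fh1, -1.54 for Dlst, -1.72 for Aco1 and -1.85 for Idh3b. Setting them against T cell-high 2 and 4 gave -0.31, -0.23, -0.10, -0.35 and -0.55 for the same genes. The same pair of values was -1.19 and -0.60 for Pdhb, -0.82 and -0.42 for Idh2, -0.67 and -0.43 for Suclg1, -3.95 and -2.07 for Idh1, -0.87 and -0.01 for Mpc2 and -0.92 and -0.15 for Got2. For Pdha1 it was 0.76 and 0.11, for Idh3a 0.77 and 0.46, for Pdk2 0.65 and 0.05 and for Pdk3 1.37 and 0.36. The sign differed between the 2 values for Dld (0.15 and -0.33), Me2 (0.36 and -0.58), Mdh2 (0.26 and -0.02) and Idh3g (-0.03 and 0.08). In the remaining members it was -0.77 and -0.37 for Dlat, -0.70 and -0.34 for Pdhx, -0.31 and -0.01 for Mpc1, -0.24 and -0.35 for Pdk1, -0.33 and -0.31 for Ogdh and -0.23 and -0.45 for Mdh1. For Me1 these values were -2.16 and -2.47, for Suclg2 -1.01 and -1.21, for Pdp2 -1.64 and -1.40, and for Sucla2 -0.48 and -0.44. Both comparisons share the T cell-low libraries, and their difference was not tested. The median over the tested members was -0.70 for the first and -0.34 for the second, with 0.01 and 0 over all tested genes.

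**Figure D3:**
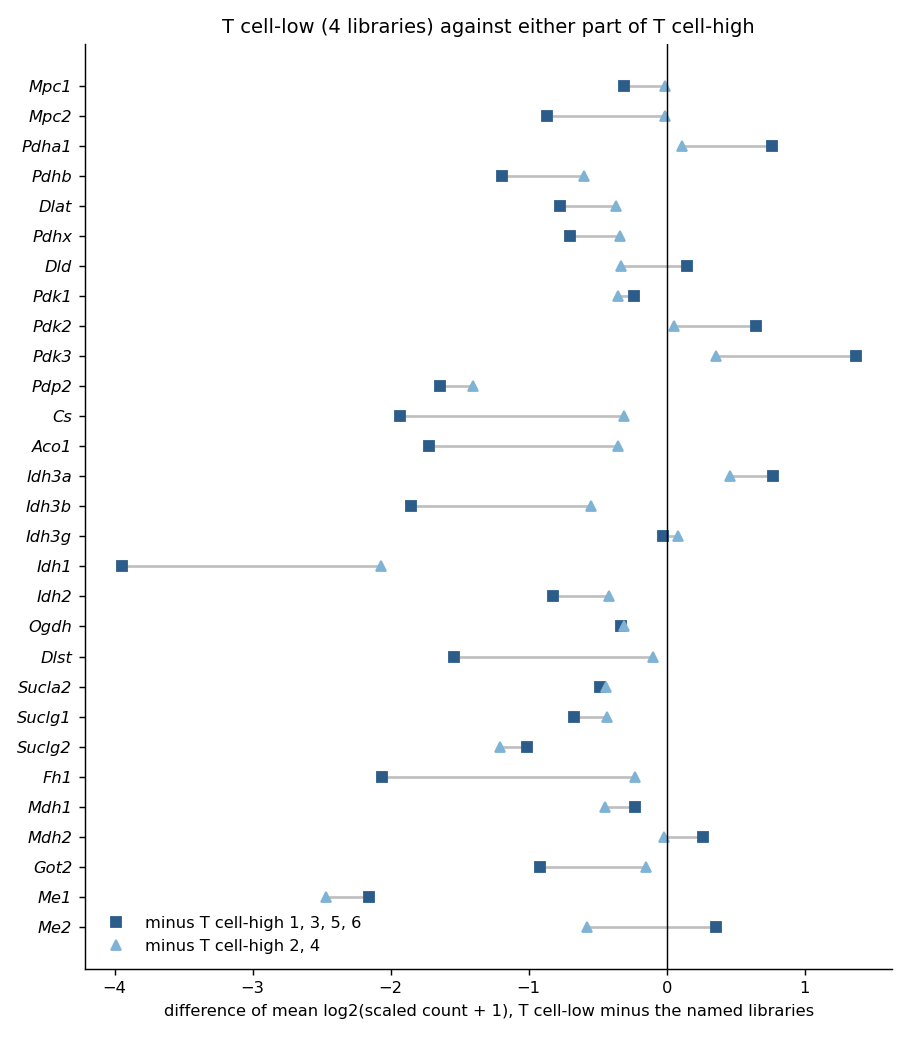
Difference of mean log2(scaled count + 1) for each tested member, as T cell-low less T cell-high 1, 3, 5 and 6 (squares) or less T cell-high 2 and 4 (triangles). Cs, Dlst and Fh1 show the widest gaps after Idh1, and the symbols of Ogdh and Sucla2 nearly coincide.

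By library, the median member lay 0.33, 0.49, 0.65 and 0.62 below the T cell-high mean on the log2 scale in T cell-low 1 to 4. In T cell-high 2 and 4 it lay 0.25 and 0.17 below, and in T cell-high 1, 3, 5 and 6 it was 0.08, 0.14, 0.11 and -0.06. The median over all tested genes was between 0 and 0.03 in every library. The number of tested members below the T cell-high mean was 26, 21, 23 and 22 in T cell-low 1 to 4 and 7 to 21 in T cell-high libraries. T cell-low 1 thus held the most members below that mean and the smallest median distance from it among T cell-low libraries.

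**Figure D4:**
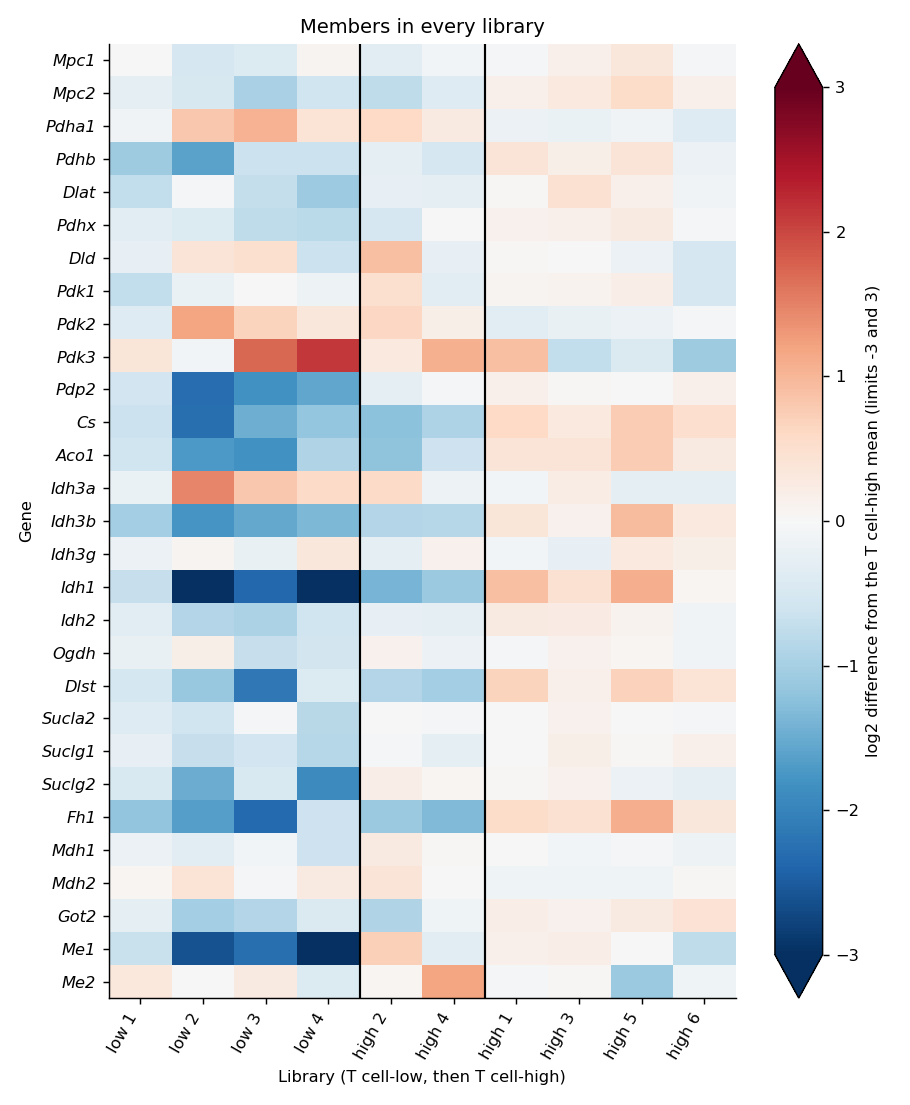
Log2 difference of each tested member (rows, pathway order) from its T cell-high mean in each library (columns), with colours limited at -3 and 3. Idh1 is deepest, at -5.53 in T cell-low 2, and Idh1, Cs, Aco1, Idh3b, Dlst and Fh1 are blue in T cell-high 2 and 4 as well, while Suclg2 is not.

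The balance between partner enzymes was compared within libraries, where a common scaling of a library cancels apart from the pseudocount. Of 10 pairs chosen, 9 had both members tested. Of these 9, 7 differed between the groups (exact two-sided permutation test, adjusted p = 0.0245 for each of the 7, adjusted over the 9 pairs). The share of other gene pairs that would differ was not computed. Of single genes, 3830 of 11110 tested had an unadjusted p below 0.05 by limma. Idh2 and Idh3a each enter more than 1 pair, and several pairs hold a called member, so the pairs are not independent. The count is therefore not shown to be particular to this pathway. The log2 ratio of Pdha1 to Pdhb was 1.92 ± 0.68 (SD, n = 4) in T cell-low livers, against 0.38 ± 0.65 (SD, n = 6), with all 4 T cell-low values above all 6 T cell-high values (exact permutation p = 0.00952). That of Idh3a to Idh3b was 1.44 ± 1.01 and -0.65 ± 0.96, with T cell-low 1 (0.17) below T cell-high 2 (0.79). Each of these 2 pairs joins partner subunits of 1 enzyme. In both, the T cell-high 2 and 4 values lay between those of the other T cell-high libraries and most of T cell-low. The mean in T cell-high 1, 3, 5 and 6 was -0.03 for Pdha1 to Pdhb, against 1.21 in T cell-high 2 and 4. For Idh3a to Idh3b the same means were -1.18 and 0.42. With all libraries no exact permutation p below 0.00476 was possible. For both pairs another division of the libraries thus gave a difference at least as large. In both, T cell-high 1, 3, 5 and 6 against the other 6 libraries was such a division.

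Between compartments, the log2 ratio of Idh1 to Idh2 was -2.64 ± 2.07 (SD, n = 4) against -0.01 ± 0.83 (SD, n = 6), and that of Mdh1 to Mdh2 -0.24 ± 0.41 against 0.23 ± 0.13. The ratio of Me1 to Me2 was 2.99 ± 0.91 against 5.30 ± 0.93. That of Idh2 to Idh3a, the NADP against the NAD enzyme of mitochondria, was 1.36 ± 0.95 against 2.71 ± 0.45. The ratio of Sucla2 to Suclg2, the ATP-forming against the GTP-forming beta subunit, was higher in T cell-low livers, at -0.62 ± 0.45 against -1.23 ± 0.16. Pdk1 to Pdk2 (-2.94 ± 0.46 against -2.22 ± 0.42, exact permutation p = 0.0476, adjusted p = 0.0536) and Mpc1 to Mpc2 (-1.21 ± 0.30 against -1.58 ± 0.29, exact permutation p = 0.0762 before and after adjustment) did not pass. Each of the 7 pairs missed the threshold in 6 of the 10 fits with 1 library left out, with adjusted p-values of up to 0.0612. Without T cell-high 1, 3, 5 and 6, where the 6 libraries left allow no exact permutation p below 0.0667 and no pair could pass, the differences were 0.72 for Pdha1 to Pdhb and 1.02 for Idh3a to Idh3b.

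**Figure D5:**
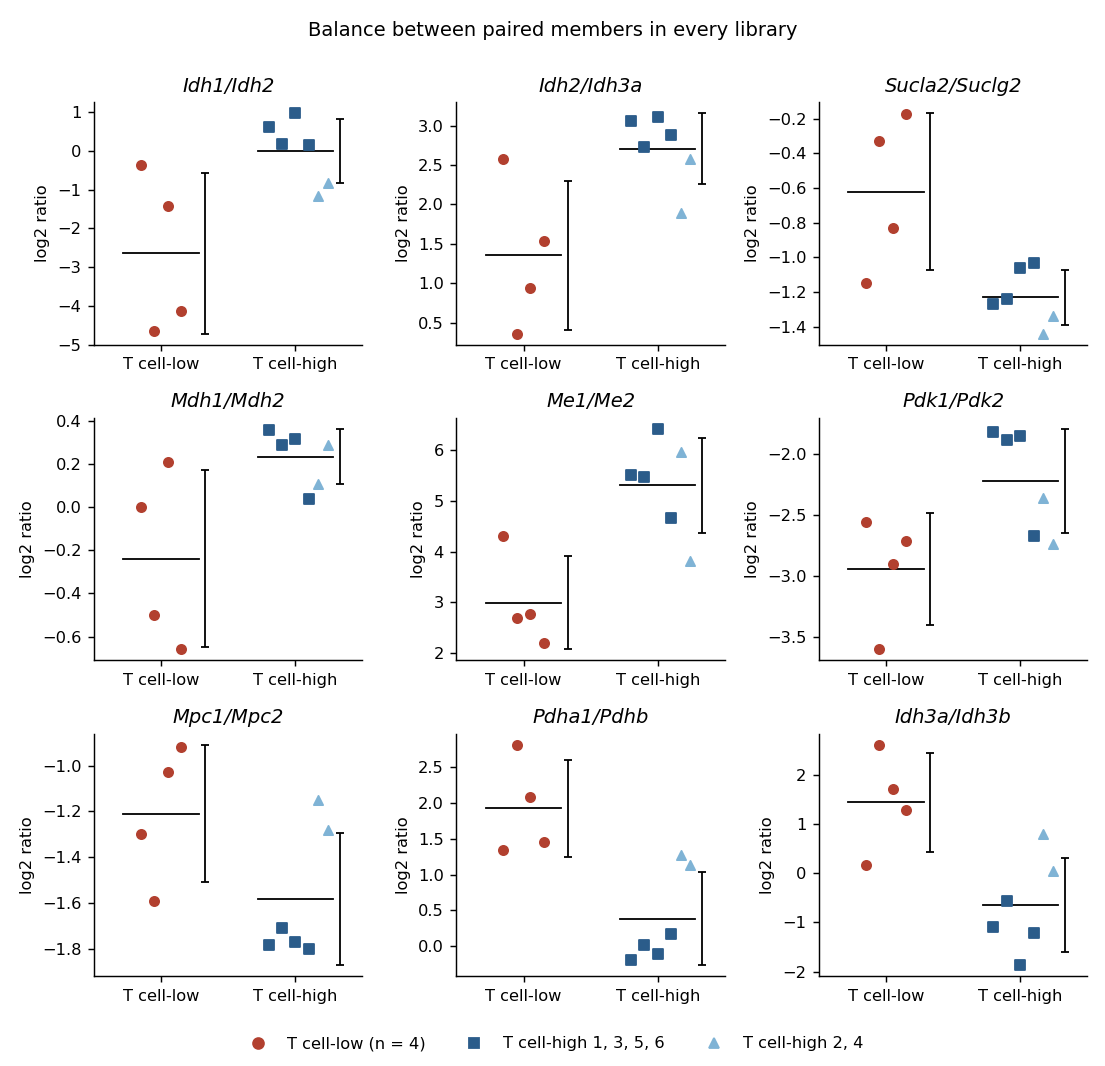
Log2 ratio of paired members in each library, with the group mean (line) and SD (bar to its right). The Pdha1 to Pdhb panel has no overlap between the groups, from 1.35 upwards in T cell-low libraries, and up to 1.27 in the other group.

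Other genes of the pathway were grouped in lists by function. Each count below stands beside 7.39% of all tested genes called lower and 5.39% called higher. For each called gene named, values against T cell-high 1, 3, 5 and 6 and against T cell-high 2 and 4 follow in that order. Of 8 tested genes of succinate dehydrogenase, its assembly factors and mitochondrial aconitase, 2 fell and 1 rose. The flavoprotein subunit gene Sdha had 1071 ± 227 against 1706 ± 266 scaled counts (-0.68, adjusted p = 0.041 by limma). The assembly factor gene Sdhaf4 had 37 ± 30.2 against 167 ± 106 (-2.08, adjusted p = 0.0492), and Sdhaf1, another assembly factor gene, had 214 ± 21.8 against 138 ± 21.6 (0.64, adjusted p = 0.0481). Against the parts of the T cell-high group the values were -0.81 and -0.41 for Sdha, -2.89 and -0.47 for Sdhaf4, and 0.50 and 0.90 for Sdhaf1. Of 12 genes around pyruvate and acetyl-CoA 2 fell and 0 rose. These were Acss2, the cytosolic acetyl-CoA synthetase (-1.99, SE 0.35, adjusted p = 0.0118), and Acly, which splits exported citrate (-1.41, SE 0.41, adjusted p = 0.0435). Their values against the 2 parts were -2.13 and -1.70 for Acss2, and -1.40 and -1.43 for Acly. Of 11 genes of anaplerosis and carboxylate carriers 3 fell and 1 rose, with the liver glutaminase Gls2 lower (-1.29, adjusted p = 0.04 by limma) and the dicarboxylate carrier Slc25a10 lower (-0.78, adjusted p = 0.0379). By part, Gls2 gave -1.69 and -0.50, and Slc25a10 -0.91 and -0.51.

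Of 11 genes for lipoate and thiamine cofactors 1 fell, Bola3, an iron-sulphur cluster factor needed for lipoate synthesis (-0.88, SE 0.22, adjusted p = 0.0279 by limma; by part -1.0 and -0.64), and 0 rose. Of 9 genes of other 2-oxoacid dehydrogenases and related proteins 0 passed. Gcsh, the glycine cleavage H protein, had the highest mean, at 838 ± 297 against 1069 ± 110.4 scaled counts (-0.41). The dehydrogenase subunit genes Bckdha, Bckdhb and Dbt gave 0.02, 0.28 and 0.0, and the list median was -0.2. Of 10 NADPH and lipogenic partners of Me1 and Idh1 3 fell and 0 rose. They were the carbohydrate-responsive factor Mlxipl (-1.65, SE 0.30, adjusted p = 0.0122), the glucose-6-phosphate dehydrogenase gene G6pdx (-1.57, adjusted p = 0.0291) and the desaturase gene Scd1 (-2.22, adjusted p = 0.0485). By part, Mlxipl gave -1.69 and -1.56, G6pdx -1.77 and -1.17, and Scd1 -1.97 and -2.71. G6pdx was a low gene, with 6.78 ± 2.5 against 22.4 ± 8.4 scaled counts. The list median was -1.37, against -1.45 and -1.16 when set against T cell-high 1, 3, 5 and 6 or 2 and 4.

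Of 25 nuclear genes of the respiratory chain 4 fell and 0 rose, with Ndufa9 (-0.94, adjusted p = 0.0209 by limma) and Ndufb8 (-0.90, adjusted p = 0.0295) of complex I and Cox5b (-1.28, adjusted p = 0.0448) of complex IV named. By part, Ndufa9 gave -1.09 and -0.64, Ndufb8 -1.05 and -0.61, and Cox5b -1.69 and -0.46. The median of the list was -0.45, and it was -0.47 and -0.26 against the respective parts of the T cell-high group. Of 15 genes of mitochondrial mass and import 1 fell, the protease gene Lonp1 (-1.53, SE 0.38, adjusted p = 0.0278 by limma), and 0 rose. That count is near the share of all tested genes called lower, 7.39%. By part, Lonp1 gave -2.06 and -0.45. The median of the list was -0.30, and against T cell-high 2 and 4 it was 0.01. Of 13 regulators 2 fell and 0 rose, the nuclear receptor genes Nr1h3 (-1.25, adjusted p = 0.0335) and Esrrg (-1.93, adjusted p = 0.0422). By part, Nr1h3 gave -1.47 and -0.81, and Esrrg -2.29 and -1.21. Esrrg was a low gene, with 6.48 ± 4.49 against 25.9 ± 13.4 scaled counts. Beside the -0.58 of the members these medians are descriptions, and no difference between lists was tested.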

How the data were processed

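The deposited values are a signal per gene and library, not whole and with close library totals. The submitters' processing notes name STAR, DESeq2 and build mm10 without versions. No header or label states the scaling, and the values are read here as gene counts brought to a common depth. Read counter and annotation: not given in the sources used here. Total RNA of liver went into a kit that reads 3′ ends (QuantSeq FWD), per the labels' protocols. Low values lay on whole steps for too few genes, so reads could not be recovered and limma took the place of a count test. Groups and replicate numbers came from titles, and columns from the submitters' sample codes.

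The test covered the 11110 of 24972 genes whose mean over all 10 libraries reached 10 scaled counts. The log2 of the value plus 1 was compared with limma 3.58.1 in R 4.3.3 (variance trend, group as the only term, two-sided, Benjamini-Hochberg adjusted over all tested genes, called below 0.05). Intervals are 95% intervals of the moderated test. The procedure was tested on simulated data. The members and lists were chosen with earlier results of these data known. All members are reported. Other lists give counts and up to 3 called genes of lowest adjusted p, or the gene of highest mean, except that 1 called gene is not reported here by name. Positions and 3′ ends are from GENCODE vM21 on the mm10 assembly, and an end was called shared when its last 400 bases had 20% or more of their 50-base words in common with another gene (1 of 31 members, Mpc1). Opposite-strand neighbours were sought within 200 bases of gene ends. Promoter windows are RefSeq's. Alternatives covered scaling, pseudocount, filter, variance model, library weights, a replicate block, the threshold and libraries left out. Python 3.11.15 with matplotlib 3.10.9 drew the figures.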

Additional observations from a re-analysis of the deposited data

Results flagged for a closer look

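Of 76 sets of values checked (29 members and 9 ratios in either group), 4 held a library far from the rest of its group, where chance alone gives about 1 in 20. All 4 were in the T cell-high group. Dld had 735 scaled counts in T cell-high 2, against 278 to 408 in the other 5. Mdh2 had 3349 in the same library, against 2329 to 2609. Sucla2 had 721 in T cell-high 3, against 638 to 665. Me2 had 90.9 in T cell-high 4, against 17.8 to 41.4. None of these 4 members passed the group test.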

How the results depend on the processing

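All 9 called members kept a negative fold change in every alternative run, and 25 of 29 tested members kept their sign. The count of genes called (1420) was 2871 at an adjusted p below 0.1, 852 without a variance trend, 3266 with library weights, 2605 with T cell-high 2 and 4 dropped, and 0 with T cell-high 1, 3, 5 and 6 dropped. Members called lower (9) were 15, 5, 15, 15 and 0 under these, and members called higher (0) were 3 with library weights (Pdha1, Pdk2 and Idh3a) and 1 without T cell-high 2 and 4 (Pdha1). With 1 library left out the ranges were 108 to 3622 genes, 1 to 14 members lower, 0 to 3 higher and a member median of -0.68 to -0.50. The median was -0.34 without T cell-high 1, 3, 5 and 6. Fewer libraries were compared in the left-out fits; beyond that the cause was not tested. Libraries of the same replicate number were at most weakly alike (correlations of deviations 0.10, 0.21, -0.10 and -0.15 for numbers 1 to 4). Such correlations cannot exclude a pairing. A replicate block, in which T cell-high 5 and 6 carry no weight, gave 193 genes, with 3 members lower (Pdp2, Idh1 and Me1). Rescaling to equal totals shifted the median of all genes by -0.11, gave 421 genes higher and 1068 lower in place of 599 and 821, and called 11 members lower, Cs (adjusted p = 0.041 by limma) and Fh1 (adjusted p = 0.045) being added.

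For the ratios, no pair could pass without T cell-high 1, 3, 5 and 6, since 4 against 2 libraries give an exact permutation p of at least 0.0667, so those differences carry no test. They were -1.65 for Idh1 to Idh2, -0.88 for Idh2 to Idh3a, 0.77 for Sucla2 to Suclg2, -0.43 for Mdh1 to Mdh2, -1.89 for Me1 to Me2, 0.72 for Pdha1 to Pdhb and 1.02 for Idh3a to Idh3b. Without T cell-high 2 and 4, Sucla2 to Suclg2 (0.53) and Mdh1 to Mdh2 (-0.49) were lost and Mpc1 to Mpc2 (0.56) passed. With 1 library left out they ran from -3.39 to -1.96, -1.76 to -1.02, 0.46 to 0.79, -0.62 to -0.33, -2.75 to -2.04, 1.24 to 1.73 and 1.70 to 2.51 in the order of the first sentence, from -0.85 to -0.50 for Pdk1 to Pdk2 and from 0.27 to 0.50 for Mpc1 to Mpc2. Depth is unknown, so the precision of low values such as those of Pdk3, G6pdx and Esrrg cannot be given.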
